A study of Arabidopsis thaliana with 24 samples.

Results

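Polysome-bound RNA was compared with total RNA in dark-grown dcp5-1 seedlings of Arabidopsis thaliana. The comparison used the 3 polysomal and the 3 total-RNA arrays of this genotype kept in darkness, 6 of the 24 arrays of the study, paired by replicate number. All 22746 non-control probe sets of the ATH1 array, out of 22810, belong to it. The seedlings were 4 d old, etiolated and in the Col-0 background, and RNA came from their aerial parts. The dcp5-1 mutation lies in DCP5, and the seedlings carried no other labelled allele or agent. The remaining arrays hold Col-0 in darkness, and both genotypes after 4 h of white light, in the same 2 RNA fractions with 3 replicates each. Of these, dark Col-0 and light dcp5-1 are used below for comparison. All 24 arrays, light Col-0 among them, entered the estimate of spread behind the standard errors and adjusted p-values. Each labelling reaction started from 300 ng of RNA, so the arrays measured the make-up of each RNA fraction and not its amount.

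An mRNA carrying several ribosomes sediments with polysomes, and its share in that fraction relative to total RNA is used as a measure of how strongly it is engaged in translation. DCP5 is a component of processing bodies, cytoplasmic granules in which untranslated mRNAs are stored or decapped and degraded. In etiolated seedlings many mRNAs for greening are made before light arrives, while their plastids, the etioplasts, hold their own genome, transcripts and ribosomes. The comparison asks which transcripts are over- or under-represented on polysomes of dark seedlings in which DCP5 is mutated.

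The deposited values are log2 signals. The median of the polysomal arrays lay below that of the paired total-RNA arrays by a log2 difference of -1.61, -1.25 and -1.13 in pairs 1, 2 and 3. The mean was -1.33 ± 0.25 (SD, n = 3 pairs), and an exact two-sided sign-flip test gave p = 0.25, the smallest that 3 pairs allow. The lowest value of each array was displaced by a similar amount. It was -1.52, -1.14 and -1.06 on the polysomal arrays and 0 on the total-RNA arrays. The floor of the deposited scale thus moved with the median, and what set the shift was not tested. Each array was therefore centred on its own median, and every level below is a log2 signal relative to that median. A difference, also called loading, is the polysomal minus the total level. It says where a transcript stands among the others and not how much of it was on polysomes. The number of arrays limits the precision. DCP5 itself is named by no probe set, so the genotype could not be checked by its transcript. Among the markers chosen for etiolated shoots, PORB, a protochlorophyllide oxidoreductase, lay at 6.38, 6.25 and 6.18 on the total-RNA arrays, at level percentile 99.1 of the tested probe sets. LHCB4.3, a light-harvesting protein, lay at 1.22, 1.32 and 1.78. Of the root markers 3 were tested. PYK10, a beta-glucosidase of roots and hypocotyls, stood at level percentile 99.8 with 6.98, 6.86 and 6.70. LBD16 and EXPA18 stood at level percentiles 70.2 and 25.3. None of these root markers was called between the fractions, which does not bear on whether root tissue was present. Their part in the results was not tested. In whole aerial tissue, fewer cells of a type and less RNA per cell cannot be told apart.

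Of the 17059 probe sets tested, limma called 2875 higher and 2190 lower in polysomal RNA at a Benjamini-Hochberg adjusted p under 0.05. These are 16.9% and 12.8% of those tested, 29.7% together. The same differences without pairing by replicate number gave 1371 higher and 961 lower. With the array-wide shift kept, 6 probe sets were called higher and 15025 lower, so the directions given here hold only relative to the array median. Leaving out replicate 2 gave 3372 calls and leaving out replicate 3 gave 3140. Most differences were small, and 90% of them lay between -0.86 and 0.85. Among the calls 433 were higher and 478 lower by more than 2-fold. The polysomal and total levels did not overlap in 2206 of the higher and 1662 of the lower calls. Over all tested probe sets, 18.0% were higher and 14.0% lower with no overlap.

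**Figure D1:**
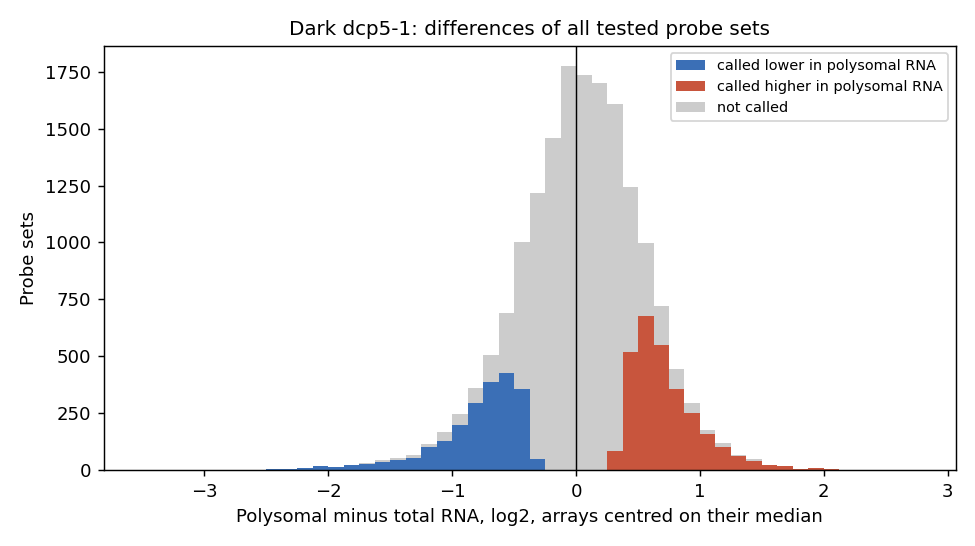
Number of probe sets (vertical axis) by the polysomal minus total difference in dark dcp5-1 (log2, arrays centred on their median, horizontal axis), coloured by call. Of 17059 tested, 2875 were called higher and 2190 lower, and the lower side has the longer tail.

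Calls became more frequent with level. In the lowest 20% of levels 3.66% of probe sets were called higher and 5.45% lower, and in the highest 20% 30.9% and 17.1%. The median standard error fell over the same range from 0.39 to 0.14.

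Plastid-encoded genes had the lowest medians of the 34 gene lists examined. The plastid genome encodes core subunits of the photosynthetic complexes and of the plastid's own gene expression machinery, and plastid transcripts are read by plastid ribosomes. How well the labelling reaction captured plastid transcripts in each fraction was not tested. Their differences are therefore given as relative array signals and not as a measure of translation in plastids. Of 20 tested plastid-encoded photosystem genes 14 fell and 1 rose, with a median difference of -1.30, where all tested probe sets had a median of 0.05. The median was -1.50, -1.17 and -1.28 in the 3 pairs. Without pairing, 10 fell and 0 rose.

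psbA encodes the D1 protein of the photosystem II reaction centre. Its polysomal levels were -1.35, -1.29 and -3.39 and its total levels 0.52, 0.90 and -0.67 in replicates 1 to 3. The groups did not overlap, though replicate 3 was low in both fractions, and the difference was -2.26 ± 0.23 (moderated SE, n = 3 pairs, limma adjusted p = 1.3e-06). Here and below the SE comes from a spread that limma estimated over all 12 pairs of the study, not from these 3 alone. psbD, for the partner protein D2, had polysomal levels of -1.44, -1.41 and -1.88 against total levels of 1.28, 0.38 and 0.51. All 3 polysomal values lay below all total values, with a difference of -2.30 ± 0.26 (adjusted p = 4.6e-06). The antenna proteins CP47 and CP43 of photosystem II, encoded by psbB and psbC, fell less, by 1.38 ± 0.27 and 1.37 ± 0.27.

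The genes psbE, psbF, psbL and psbJ are transcribed together in plants and encode small photosystem II subunits, the former pair being cytochrome b559. psbE had polysomal levels of 2.09, 1.29 and 1.62 and total levels of 4.48, 3.42 and 3.68. The difference was -2.19 ± 0.16 (limma adjusted p = 5.9e-08), with the groups far apart. The difference was -1.52 ± 0.15 for psbF, -1.23 ± 0.18 for psbL and -1.02 ± 0.12 for psbJ. All 4 passed the test with no overlap. The lowest difference of the list was that of psbH, a small photosystem II phosphoprotein, at -3.27 ± 0.32 (adjusted p = 1.0e-06). Its pairs differed by -2.34, -2.93 and -4.55, but replicate 3 was low in both fractions, so the polysomal value of replicate 1, at 0.27, exceeded the total value of replicate 3, at 0.09.

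The large photosystem I subunits psaA and psaB, which are neighbours in 1 transcription unit, differed in direction. psaA had polysomal levels of -2.03, -2.13 and -1.77 and total levels of 0.56, 1.03 and 0.35, a difference of -2.62 ± 0.23 (limma adjusted p = 3.6e-07). psaB had polysomal levels of 6.35, 6.10 and 5.00 and total levels of 5.69, 5.97 and 4.16. Its groups overlapped, the difference was 0.54 ± 0.16 (adjusted p = 0.013), and the call ended without pairing, with quantile normalisation and without replicate 1 or replicate 3. psaJ, a small photosystem I subunit, fell by 2.01 ± 0.21, whereas psaI was at -0.27 ± 0.24 and psbI, of photosystem II, at 0.25 ± 0.18, neither called.

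Of 22 tested plastid genes for the cytochrome b6f complex, ATP synthase, NDH complex and Rubisco, 12 fell and 1 rose, with a median of -1.08. Without pairing 4 fell and 1 rose. Several members of the NDH complex, which cycles electrons around photosystem I, were among the lowest. ndhA had polysomal levels of 3.51, 2.05 and 2.09 and total levels of 5.25, 4.302 and 4.13, a difference of -2.01 ± 0.16 (limma adjusted p = 9.0e-08). ndhK fell by 1.87 ± 0.19, and ndhJ by 1.98 ± 0.19, which had adjusted p = 0.056 without pairing. ndhC, which neighbours ndhK and ndhJ, fell by 0.56 ± 0.12. In the cytochrome b6f complex petA, for cytochrome f, was at -1.12 ± 0.18 and petB, for cytochrome b6, at -1.06 ± 0.17, and both were called.

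ATP synthase genes did not move together. atpH, for the membrane subunit c, rose the most of all named genes, with polysomal levels of 2.03, 4.32 and 3.23 and total levels of 0.68, 1.92 and -0.64. The groups did not overlap, the difference was 2.54 ± 0.52 (limma adjusted p = 0.0011), and the pairs lay between 1.35 and 3.86. Its neighbours atpF and atpA, for other subunits of the enzyme, fell by 1.10 ± 0.23 and 1.17 ± 0.16, although atpA had adjusted p = 0.18 without pairing. atpB and atpE, for subunits beta and epsilon, were at -0.12 ± 0.13 and 0.28 ± 0.12, with neither called. rbcL, the large subunit of Rubisco, was at -0.33 ± 0.16 (adjusted p = 0.12).

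Among 18 plastid genes for ribosomal proteins, RNA polymerase and the maturase 10 fell and 0 rose, with a median of -0.61, and without pairing 3 fell. The neighbours rpl16, rpl14 and rpl36, for proteins of the large ribosomal subunit, were at -2.15 ± 0.24, -1.71 ± 0.17 and -1.46 ± 0.19. rps16, for a protein of the small subunit, was at -2.31 ± 0.29 (limma adjusted p = 1.0e-05). matK, the intron maturase, fell by 1.08 ± 0.14 (adjusted p = 0.11 without pairing). The polymerase subunit genes rpoA and rpoC2, at 0.08 ± 0.20 and 0.41 ± 0.33, were not called. cemA, for an envelope membrane protein, lay outside these lists and fell by 2.44 ± 0.24.

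**Figure D2:**
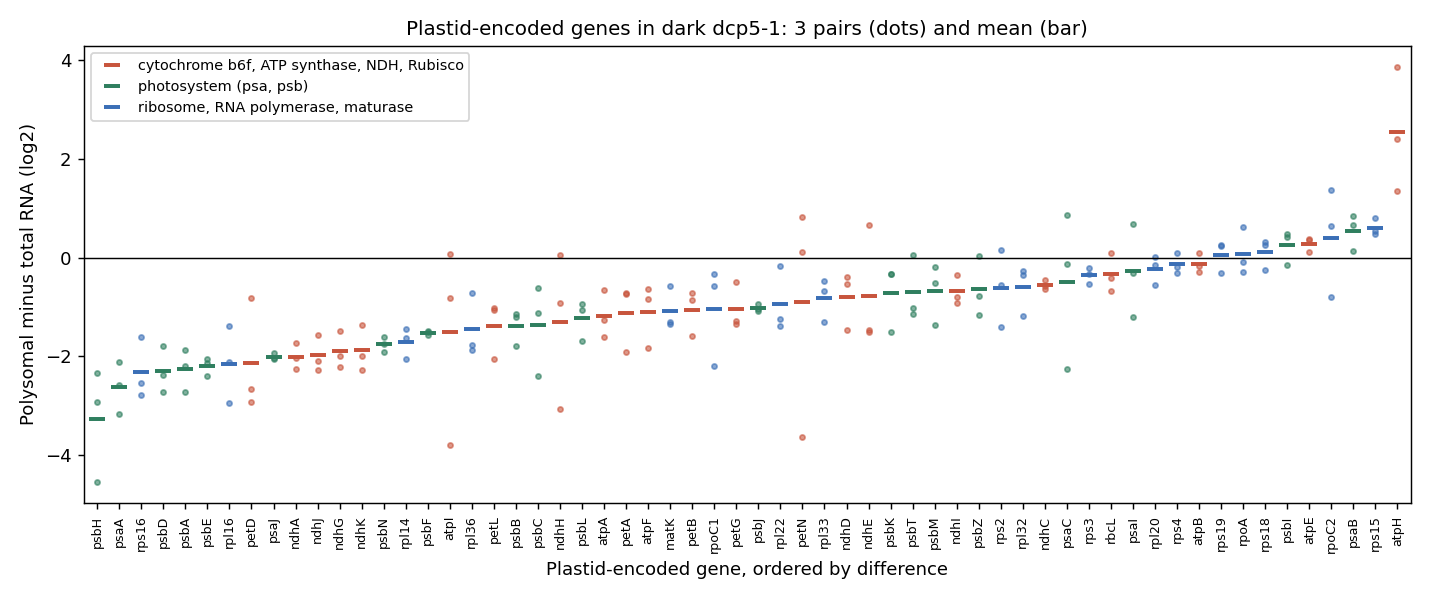
Polysomal minus total difference (log2, vertical axis) of 60 plastid-encoded genes in dark dcp5-1, with 3 replicate pairs as dots and their mean as a bar. psbH, psaA and rps16 lie lowest, and atpH alone lies above 1.

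Of 9 tested mitochondrion-encoded genes 3 fell and 0 rose, with a median of -0.58, and most were dim. The lower calls were 33.3% of the list, where 12.8% of all tested probe sets were called lower and 16.9% higher. The lower count was 1 without pairing and 1 without replicate 2. cox2, for a cytochrome c oxidase subunit, had polysomal levels of -3.81, -5.37 and -4.003 and total levels of -1.47, -1.32 and -1.30. Its difference of -3.03 ± 0.50 (limma adjusted p = 1.5e-04) came from level percentile 0.557. cox1, for another subunit, fell by 1.05 ± 0.25, and the call ended without replicate 2 (adjusted p = 0.067). ccb382 fell by 0.54 ± 0.19, and its call ended without pairing and without replicate 1 or replicate 2. Copies of mitochondrial sequence on nuclear chromosomes can share probes with these genes.

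Of 43 tested nuclear genes for cytosolic ribosomal proteins of the 40S subunit 19 rose and 4 fell (median 0.39), and of 80 for the 60S subunit 42 rose and 5 fell (median 0.36). These are 44.2% and 52.5% higher, where 30.9% of all probe sets in the highest 20% of levels were called higher. The lists' median level percentiles were 93.1 and 93.8. Without pairing 11 and 24 rose, and with quantile normalisation 17 and 34 rose and 8 and 11 fell. Differences ranged from -0.62 to 1.36 in the 40S list and from -0.96 to 1.32 in the 60S list, so members of both lists moved both ways. AT2G21580, of the 40S list, had polysomal levels of 4.36, 4.94 and 5.07 and total levels of 2.99, 3.496 and 3.79, a difference of 1.36 ± 0.15 (limma adjusted p = 3.0e-06). AT3G06680, of the 60S list, had polysomal levels of 4.35, 5.09 and 4.90 and total levels of 3.25, 3.79 and 3.65, a difference of 1.22 ± 0.13 (adjusted p = 2.1e-06). In both genes every polysomal value lay above every total value. AT4G34555 (1.32 ± 0.15), AT3G02190 (1.32 ± 0.15), AT1G74270 (1.17 ± 0.14) and AT3G60245 (0.99 ± 0.11) did the same. Ribosomal proteins are encoded by near-identical copies, and probe sets may not separate these.

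Nuclear genes of the tetrapyrrole pathway, which makes chlorophyll and haem, were examined next. Of 13 tested 8 fell and 1 rose, where 12.8% and 16.9% did over all tested probe sets, with a median of -0.50 and pair medians of -0.39, -0.37 and -0.49. Without pairing 4 fell, and without replicate 3 the count was 5. GSA1, glutamate-1-semialdehyde aminotransferase, had polysomal levels of 1.78, 1.91 and 1.53 and total levels of 2.48, 2.46 and 2.39, a difference of -0.70 ± 0.15 (limma adjusted p = 0.0016). HEMA2, a glutamyl-tRNA reductase at the head of the pathway, fell by 0.94 ± 0.20. LIL3:2, a light-harvesting-like protein that anchors enzymes of chlorophyll synthesis, had polysomal levels of 4.31, 3.92 and 4.10 and total levels of 5.22, 4.89 and 4.98. The difference was -0.92 ± 0.11 (adjusted p = 5.4e-06), and the groups lay apart. Its relative LIL3:1 was at 0.31 ± 0.11 (adjusted p = 0.041), and this call ended without each of the replicates and without pairing. PORB fell by 0.47 ± 0.12, with no overlap. CHLM, the Mg-protoporphyrin methyltransferase, was at -0.51 ± 0.12, with adjusted p = 0.22 without pairing.

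The 11 nuclear genes for light harvesting, photosystems and the Calvin cycle had a median of 0.14. Of these 3 rose and 0 fell, namely PSAE-1 (0.67 ± 0.11), PSB27 (0.60 ± 0.13) and PSBW (0.48 ± 0.12), which encode photosystem subunits or assembly factors. The levels of all 3 overlapped between fractions and their calls ended without pairing (adjusted p = 0.086, 0.29 and 0.12), that of PSBW also without replicate 2. LHCB4.1, a minor antenna protein, was at -0.30 ± 0.13 and not called. The higher calls were 27.3% of this list, whose median level percentile was 97.2. Among all probe sets in the brightest of the level groups given above, 30.9% were called higher and 17.1% lower. The share of higher calls in the list was thus not above that of bright probe sets in general.

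The counts of the smaller nuclear families that follow stand against the 16.9% called higher and 12.8% called lower over all tested probe sets. Components of the nuclear RNA polymerases moved both ways. Of 12 tested 5 rose and 1 fell, with a median of 0.30. NRPB12, a small zinc-binding subunit, had polysomal levels of 3.03, 4.13 and 4.12 and total levels of 1.71, 2.8004 and 2.56, a difference of 1.405 ± 0.17 (limma adjusted p = 8.3e-06). NRPB6A and NRPB9B, other small subunits, rose by 0.90 ± 0.12 and 0.92 ± 0.18. NRPB7, a subunit of the stalk of the enzyme, was the member that fell, by 0.82 ± 0.17.

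Several families of protein turnover and membrane trafficking were examined. Of 12 ubiquitin-specific proteases, which remove ubiquitin from proteins, 6 rose and 0 fell (median 0.51), among them UBP25 (0.93 ± 0.14), UBP15 (0.89 ± 0.15) and UBP18 (0.79 ± 0.17). Of 12 ubiquitin-conjugating enzymes 3 rose and 1 fell, and the higher count was 1 without pairing and 1 without replicate 1 or replicate 2. UBC28, the member that fell, had polysomal levels of 5.65, 5.62 and 5.32 and total levels of 6.46, 6.36 and 6.17, a difference of -0.80 ± 0.10 (limma adjusted p = 1.4e-05). Of 19 exocyst, SEC and ESCRT genes 6 rose and 3 fell, and without replicate 1 the latter count was 0. SNF7.1, a subunit of the ESCRT-III membrane remodelling complex, had polysomal levels of 3.33, 3.24 and 3.29 and total levels of 1.99, 2.10 and 2.01. Its groups were tight and apart, with a difference of 1.25 ± 0.15 (adjusted p = 8.1e-06). VPS60.2, of the same pathway, rose by 0.66 ± 0.14, and SEC15A, of the exocyst, by 0.96 ± 0.22. Of 9 ATG8 genes, which encode ubiquitin-like proteins of autophagy, 2 rose, ATG8F by 0.55 ± 0.11 and ATG8G by 0.41 ± 0.14. The call of ATG8G ended without pairing (adjusted p = 0.20) and without each replicate. Of 26 subtilases and serine carboxypeptidase-like genes 4 rose, 15.4% of the list and below the share over all probe sets, and 1 fell. Among them scpl26 rose by 1.22 ± 0.13, a 2.32-fold difference.

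Of 22 expansins and xyloglucan endotransglucosylases, which loosen and remodel walls, 6 fell and 0 rose (median -0.16). EXPA9 had polysomal levels of 2.23, 1.38 and 1.89 and total levels of 3.0001, 2.38 and 2.63, a difference of -0.84 ± 0.14 (limma adjusted p = 1.8e-04). EXPB1 fell by 1.01 ± 0.17 and EXPA4 by 0.70 ± 0.14. Of 11 glycosyl hydrolase family 9 genes 1 fell, the endoglucanase GH9C2, by 0.84 ± 0.14. Of 8 tubulins and actins 2 fell, and without replicate 3 none did. TUA1 was at -0.66 ± 0.15 and TUA6 at -0.30 ± 0.11. Of 12 auxin genes 1 fell, the repressor gene IAA18, by 0.68 ± 0.15 (adjusted p = 0.061 without pairing). Of 18 trichome birefringence-like genes, a family that acetylates wall polymers, 5 rose and 2 fell, with TBL30 at 1.02 ± 0.22, and without replicate 2 these counts were 3 and 0. The IQD and TRM genes, most of which encode proteins of the microtubule array, moved both ways. Of 24 tested 10 rose and 5 fell. IQD30 was at 1.13 ± 0.15, IQD28 at 0.80 ± 0.13 and TRM26 at -1.03 ± 0.18. Without single replicates the higher calls of this list numbered 4 to 7.

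SWEET2, a sugar transporter of the vacuole membrane, had polysomal levels of 1.28, 1.06 and 1.24 and total levels of 2.67, 2.43 and 2.36, a difference of -1.29 ± 0.15 (limma adjusted p = 5.7e-06). Of 10 SWEET genes 3 fell and 0 rose, and without pairing 1 fell. Of 36 UDP-glycosyltransferases, which attach sugars to small molecules, 6 fell and 3 rose. The lower calls were 16.7% of the list, near the share over all probe sets, and without replicate 3 the counts were 2 and 1. GT72B1 and UGT73B1 fell by 1.14 ± 0.14 and 1.27 ± 0.16. NDC1, a type II NAD(P)H dehydrogenase, fell by 1.21 ± 0.22, while CYTC-1, for cytochrome c, rose by 0.69 ± 0.14. These were among 12 dehydrogenase and cytochrome c genes, of which 4 rose and 1 fell.

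Of 17 bHLH and WRKY factors 5 rose and 3 fell, and without replicate 2 the higher count was 3. bHLH115, ILR3 and bHLH34, related factors of the iron deficiency response, rose by 0.79 ± 0.12, 0.89 ± 0.16 and 0.93 ± 0.21. Of 13 bZIP factors limma called 0 in either direction and of 8 light signalling and clock genes 1 each way. The clock gene GI had polysomal levels of 2.66, 2.16 and 2.14 and total levels of 1.82, 1.57 and 1.04, a difference of 0.84 ± 0.14 (adjusted p = 2.4e-04). It missed the threshold without pairing (adjusted p = 0.098). Of 11 LSM and mRNA decay genes, the machinery that shares processing bodies with DCP5, 2 rose and 0 fell. They were LSM6A (0.75 ± 0.19) and LSM3A (0.59 ± 0.19), and both calls ended without replicate 3 and without pairing. Of 7 LEA, COR and dehydrin genes 4 rose (median 0.56), of which 1 was called without pairing. COR47, a dehydrin, was at 0.56 ± 0.10 (adjusted p = 0.13 with quantile normalisation). OLEO3, an oleosin of oil bodies, rose by 0.81 ± 0.16.

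The counts of 5 further families were as follows. Cytochrome P450 genes had 1 call each way among 11 and tetraspanins 1 each way among 10. Organelle RNA editing and PPR genes had 1 each way among 16, storage lipid genes 1 each way among 4, and glutathione transferases 2 higher among 10. The tetraspanins, membrane-organising proteins, included TET6 at 1.12 ± 0.20 and TET5 at -0.88 ± 0.18, both with no overlap. CRR42, named for a role in the plastid NDH complex, rose by 0.99 ± 0.15 (limma adjusted p = 9.2e-05).

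**Figure D3:**
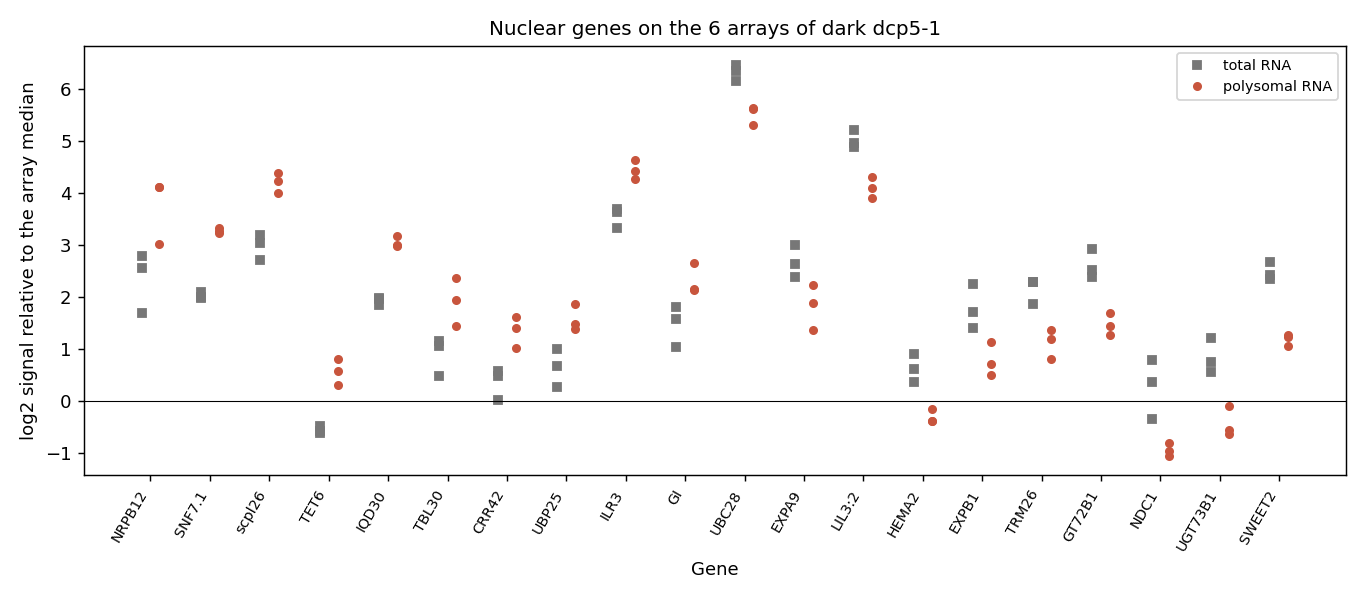
Level of 20 nuclear genes (log2 signal relative to the array median, vertical axis) on the 3 total-RNA arrays (squares) and 3 polysomal arrays (circles) of dark dcp5-1. NRPB12 to GI are higher and UBC28 to SWEET2 lower in polysomal RNA, and within each gene the fractions do not overlap.

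Ranked by size among genes with no overlap, the 12 highest differences ran from 1.73 to 2.54 and the 12 lowest from -3.11 to -2.24. Several were dim. Of the 12 highest 6, and of the 12 lowest 7, lay under level percentile 15. Leaving out 1 replicate ended the call of 5 of the 12 highest, among them TINY2, a member of the AP2/ERF factors, and of 3 of the 12 lowest, AT2G40640, ATATH8 and AT5G03090. AT1G55680 was bright and stable, with polysomal levels of 3.07, 2.79 and 3.22 and total levels of 1.31, 1.04 and 0.98. Its difference of 1.91 ± 0.14 (limma adjusted p = 5.9e-08) equals 3.76-fold. AT4G14900 (1.82 ± 0.16), AT3G20450 (1.88 ± 0.17), AT2G46630 (1.80 ± 0.26) and AT5G60710 (1.73 ± 0.23) also kept their calls without each replicate. Among the lowest AT1G66760 had polysomal levels of 0.43, -1.28 and -0.83 and total levels of 2.19, 0.81 and 2.02, a difference of -2.24 ± 0.28 (adjusted p = 1.2e-05).

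**Figure D4:**
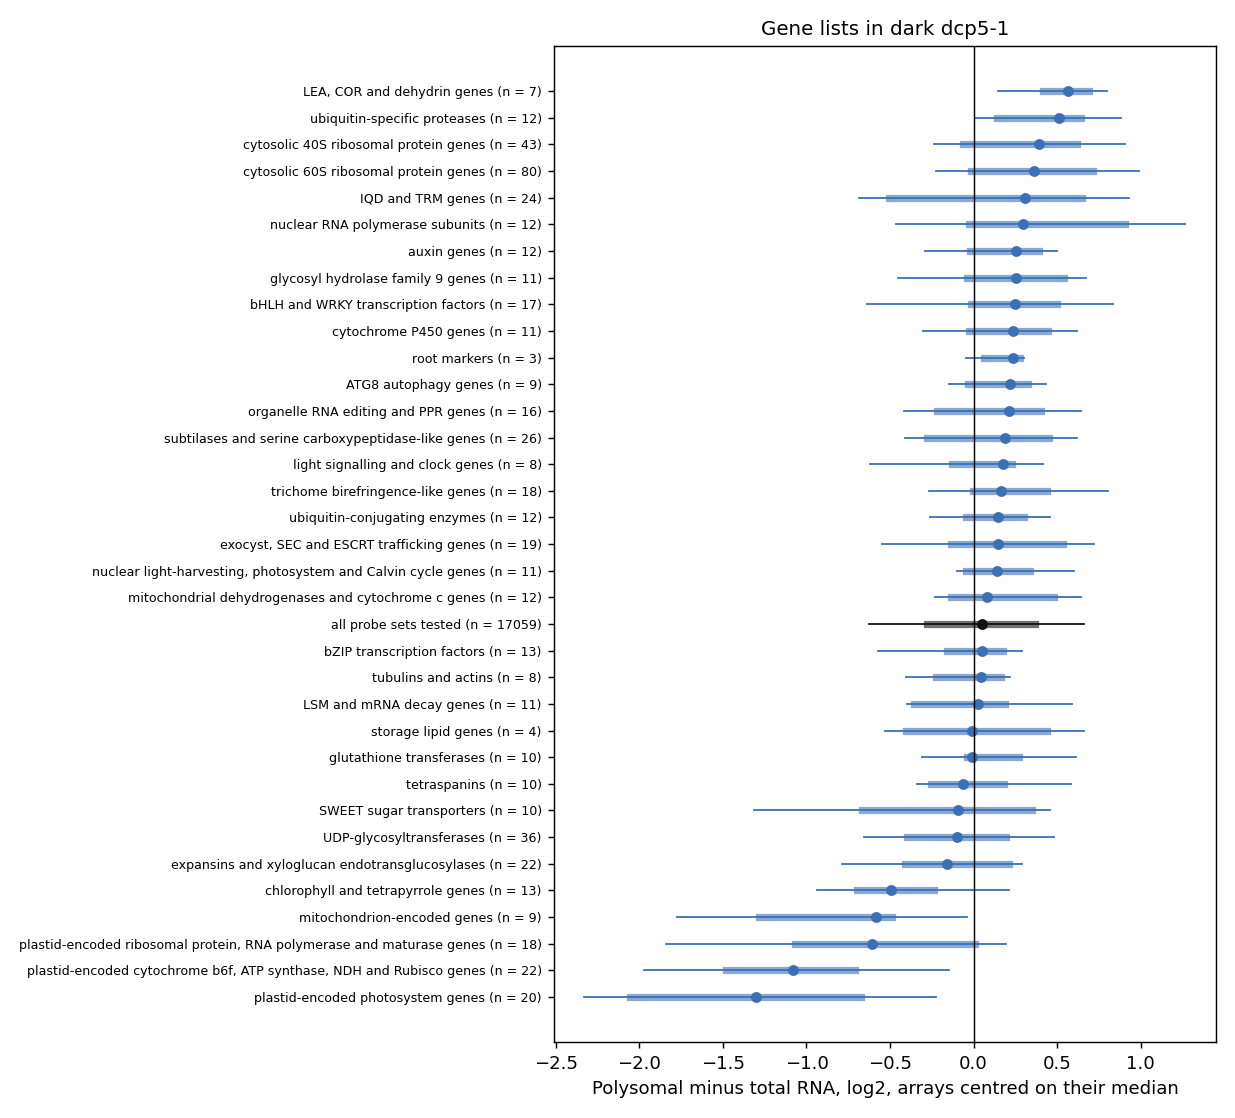
Polysomal minus total difference (log2, horizontal axis) of 34 gene lists and of all tested probe sets in dark dcp5-1, as median (dot), middle 50% (thick line) and middle 80% (thin line) of members, with n the genes tested. The plastid-encoded photosystem list lies lowest, with a median of -1.30.

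Dark Col-0, which shares no array with dark dcp5-1, gave a like pattern relative to the array median. Both sets of calls used the same spread estimate for each probe set, so the shared calls are not independent. Loading there was called higher for 2775 probe sets and lower for 1926, or 16.3% and 11.3% of those tested. Of the higher calls in dark dcp5-1, 2040 were also higher in dark Col-0, which is 70.96% of the dcp5-1 calls and 73.5% of the Col-0 calls. Of the lower calls 1355 were shared, 61.9% and 70.4%. Opposite calls numbered 1 and 0. Across the 17059 probe sets Pearson's r was 0.77, as a description over probe sets that share arrays. The difference in centred loading between the genotypes was called by limma for 0 probe sets, 0% of those tested. The lowest adjusted p was 0.25, and 687 had an unadjusted p under 0.05. These 0 calls hold only relative to the array median. With the array-wide shifts kept, 3343 probe sets were called higher in dark dcp5-1 and 2 lower. Polysomal array medians were 4.40, 5.61 and 5.48 in dark Col-0 and 5.73, 6.17 and 6.27 in dark dcp5-1. Total-RNA medians were 7.33, 7.39 and 7.41 in dark Col-0 and 7.34, 7.42 and 7.39 in dark dcp5-1. What set these shifts was not tested.

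The plastid-encoded photosystem genes had a median loading of -1.30 in dark dcp5-1 and -0.65 in dark Col-0. psbA was at -2.26 and -1.92, psbE at -2.19 and -1.67, psaA at -2.62 and -2.85, and psaJ at -2.01 and -0.61. Of the 20 genes, 6 had an unadjusted p under 0.05 for the difference between genotypes, all lower in dcp5-1, where 4.03% of all tested probe sets had one in either direction, and 0 passed the adjustment. Medians differed less between the genotypes in the other organelle lists. They were -1.08 in dcp5-1 and -0.90 in Col-0 for plastid cytochrome b6f, ATP synthase, NDH and Rubisco genes. Plastid ribosomal protein, RNA polymerase and maturase genes had -0.61 and -0.34, and mitochondrion-encoded genes -0.58 and -0.73. The cytosolic ribosomal protein lists had medians of 0.39 and 0.36 in dcp5-1 and 0.44 and 0.39 in Col-0.

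**Figure D5:**
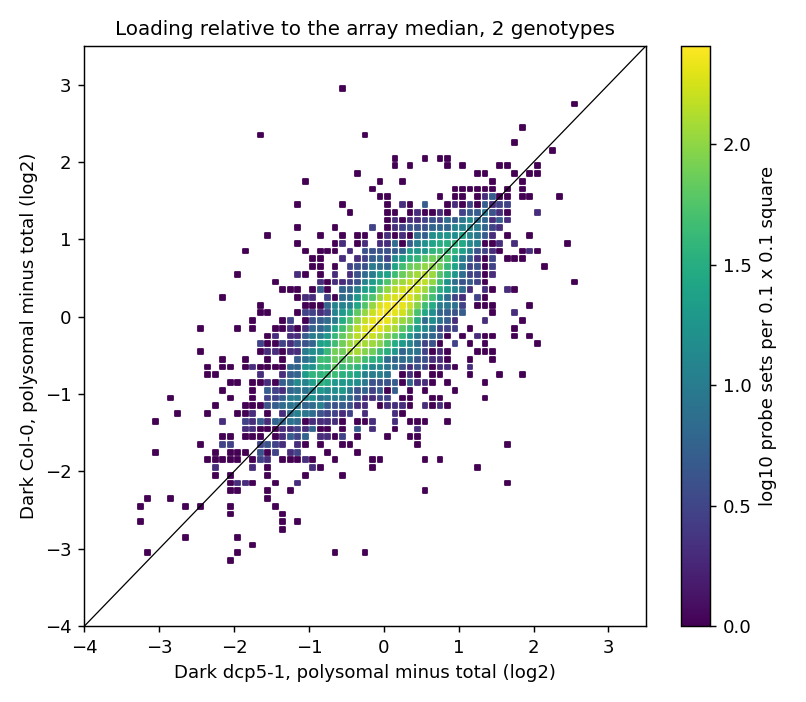
Polysomal minus total difference of tested probe sets in dark dcp5-1 (horizontal axis) and dark Col-0 (vertical axis), both log2 relative to the array median, with colour for the log10 number of probe sets in each square and a line of equality. The cloud follows the line, with Pearson's r = 0.77.

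Light dcp5-1 was compared in the same way, with the same spread estimate for each probe set. Its loading was called higher for 2860 probe sets (16.8%) and lower for 2074 (12.2%). Shared with dark dcp5-1 were 2022 higher calls, 70.3% of the dark and 70.7% of the light calls, and 1366 lower calls, 62.4% and 65.9%. Of the higher calls in the dark 0 were called lower in light, and of the lower calls 6 were called higher. The difference between dark and light loading was called for 7 probe sets, 0.0410% of those tested, all lower in the dark. The named ones were LIL3:2, AT5G16110 and AT2G26500, and no gene name was available for the other 4. LIL3:2 had loadings of -0.92 ± 0.11 in the dark and 0.06 in light. AT5G16110 was at -2.03 ± 0.14 and -0.90, and AT2G26500 at -0.17 ± 0.13 and 0.81. The number of calls depended on the fit, from 0 without pairing or without a variance trend to 8 with more dim probe sets left out. Without replicate 1, 2 or 3 in turn, 0 of the 7 kept their calls. Plastid-encoded photosystem genes had a median of -0.51 in light, with psbJ at -0.21 and psbL at -0.31 against -1.02 and -1.23 in the dark. For the difference 8 of the 20 had an unadjusted p under 0.05, all lower in the dark, where 1035 of all tested probe sets (6.07%) had one in either direction. Of the 20, 0 passed the adjustment.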

How the data were processed

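The deposited values are log2 signals that the authors made with GCOS 1.4, per the submitters' processing notes. Total-RNA arrays have a floor at a log2 value of 0, while polysomal arrays reach below it, in dark dcp5-1 by about the shift of their median. Arrays were centred on their median. After removal of 64 control probe sets and the dimmest 25% by mean level, 12 within-pair differences (4 groups of 3) entered limma (version 3.58.1, R version 4.3.3) with a variance trend, and p-values were adjusted by Benjamini-Hochberg over 17059 probe sets, with a threshold of 0.05. Replicate numbers paired the fractions: residuals of same-numbered arrays correlated at 0.20 to 0.61 in all 12 pairs. The labels call the replicates biological. Alternatives were the deposited values, quantile normalisation, trimmed-mean centring, other filters on dim probe sets, fits without pairing or with an additive replicate block, the compared pairs alone, no variance trend, array weights and leaving out each replicate.

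The gene table gives 13513 probe sets 1 gene, 503 several and 8730 none, and 13436 of the former matched a RefSeq gene table of assembly TAIR10.1, used for names only. For a gene with several probe sets the brightest was taken. The members and gene lists were chosen with earlier results of these data known. Lists follow gene symbols, except the cytosolic ribosomal protein lists, which are locus lists from standard nomenclature that the gene table does not name. Named genes are the 12 highest and 12 lowest differences with no overlap, the best 4 of each list by adjusted p, the genes called between conditions, and, chosen after their values were seen, further plastid and tetrapyrrole genes. Not every such gene is printed.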

Additional observations from a re-analysis of the deposited data

Results flagged for a closer look

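The loading of 3 named genes differed between dark and light dcp5-1 by limma's test of that difference. Loading in the dark minus loading in light was -0.98 ± 0.15 for LIL3:2, -1.13 ± 0.20 for AT5G16110 and -0.98 ± 0.18 for AT2G26500 (moderated SE, 3 pairs in each condition). The limma adjusted p was 0.012, 0.039 and 0.0496. All 3 pairs of LIL3:2 were lower in the dark than any pair in light, and the same held for AT5G16110 and AT2G26500. The differences from dark Col-0 were not called for any of them. Without replicate 1, 2 or 3 in turn, without pairing and without a variance trend, 0 of the 7 probe sets called between dark and light, these 3 genes among them, kept their calls.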

How the results depend on the processing

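Lists whose 3 pair medians lay on both sides of 0, such as light signalling and clock genes, were not checked for a change of side. Medians of most other lists kept their side of 0. The exceptions were bZIP factors (0.048, against -0.017 with quantile normalisation and -0.026 with no filter on dim probe sets), SWEET genes (-0.31 to 0.014 without single replicates, above 0 without replicate 3) and root markers (-0.135 with quantile normalisation). For polysomal minus total RNA the number of calls was 15031 as deposited and 2332 on 24 arrays with no replicate block, and 3140 to 3649 without single replicates. For dark dcp5-1 minus dark Col-0 loading it was 3345 as deposited, 3343 of them higher in dcp5-1, and 0 to 2 without single replicates. For dark minus light loading in dcp5-1 it was 1 as deposited, 0 with no replicate block, 1 with an additive replicate block, 3 with only the pairs compared, 0 with no variance trend, and 0 to 1 without single replicates, the 1 being none of the 7 called with all replicates. The deposited values keep the array-wide shift, which the centred values remove; the cause of the other changes was not tested. Dim probe sets limit the precision, with a median standard error of 0.39 in the lowest 20% of levels.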
